A study of Mus musculus with 12 samples.

Results

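The Hox cluster genes encode homeodomain transcription factors and lie in the mouse genome in 4 clusters, Hoxa, Hoxb, Hoxc and Hoxd. Their probes were chosen by name: every probe whose gene name in the array files starts with Hoxa, Hoxb, Hoxc or Hoxd and a number was taken, except Hoxc13. This gave 50 probes for 37 genes, out of 41174 distinct probes under 27373 names. There were 15 Hoxa probes for 11 genes, 15 Hoxb probes for 10 genes, 8 Hoxc probes for 7 genes and 12 Hoxd probes for 9 genes. Hoxc11 is not analysed here. Hoxc13, which is known for its role in hair shaft differentiation, was used only as a gene to compare with.

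The RNA came from whole back skin of male C57BL/6J mice, 8 weeks old, whose backs were shaved. From the next day, 200 µL of 3% MXD (minoxidil), of 10% N-CE (a cell extract of the cactus Notocactus ottonis) or of VC was applied daily, and skin was sampled after 1 (1W), 2 (2W) and 3 (3W) weeks. VC, a mixture of propylene glycol, ethanol and water, was the control of both treatments. RNA of 6 mice was pooled for each treatment and week, which made 9 pools. A treated pool and the VC pool sampled with it were put on 2 Agilent arrays with the dyes Cy3 and Cy5 exchanged, so that 12 arrays held 6 comparisons. The MXD and N-CE comparisons of a week share their VC pool and are given side by side. Every group was 1 pool, so each SD below, taken over the 2 arrays of a comparison, is technical. Whole skin is a mixture of cells, and fewer cells of a type and less RNA per cell cannot be told apart here.

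Hox genes are numbered by paralog group along each cluster. In the embryo, genes of low number are expressed towards the head and genes of high number towards the tail, in the order of their position, and Polycomb and Trithorax proteins, retinoic acid and caudal proteins are known regulators of this pattern. Hox proteins bind DNA together with TALE homeodomain proteins such as Pbx and Meis. In adult skin, dermal fibroblasts keep a pattern of Hox transcripts that marks their place on the body, and several Hox genes are also transcribed in the hair follicle.

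A log2 fold is given throughout as treated over VC. The median of a set is taken over the mean log2 folds of its probes, so it can lie outside the medians of the 2 arrays. A probe counted as measured in a comparison when it was well above background in at least 1 group on at least 1 array. A call of higher or lower needed 2 things: a mean fold above 1.5 or below 0.75, and, on each of the 2 arrays, a P of the array software under 0.01 with 1 direction for both. That P describes the spots and not the mice, and no test between pools was possible within a week. Of the 50 probes, 33 were measured in all 6 comparisons and 13 in none. Over the 6 comparisons, 12 calls were made on 9 probes of 9 genes: Hoxb4, Hoxb6, Hoxb8 and Hoxb9 were called higher, and Hoxa10, Hoxa11, Hoxc9, Hoxc10 and Hoxd10 were called lower.

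The 250 bases before the transcription start are shown for Hoxb4 and Hoxb8, as the Hoxb genes with the highest log2 fold, and for Hoxa10 and Hoxd10, as called genes of the other clusters. They are from RefSeq on GRCm38.p6 and are written 5′ to 3′ on the strand of the gene. The table of promoters held windows for 22 of the 37 genes and for 5 of the 9 called genes. Capitals mark matches on either strand to 5 short motifs. These are the GC box, spelled GGGCGG, the TATA box, spelled TATAAA, the box spelled CCAAT, a motif bound by Pbx and Hox proteins together, spelled TGATNNAT, and a motif bound by Cdx proteins, spelled TTTATG. Overlapping matches are marked as 1 run.
Hoxb4: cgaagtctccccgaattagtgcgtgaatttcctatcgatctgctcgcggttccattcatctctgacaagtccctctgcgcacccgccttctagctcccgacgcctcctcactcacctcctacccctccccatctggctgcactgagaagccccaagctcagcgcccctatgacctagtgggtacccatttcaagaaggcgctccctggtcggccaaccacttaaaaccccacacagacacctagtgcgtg
Hoxb8: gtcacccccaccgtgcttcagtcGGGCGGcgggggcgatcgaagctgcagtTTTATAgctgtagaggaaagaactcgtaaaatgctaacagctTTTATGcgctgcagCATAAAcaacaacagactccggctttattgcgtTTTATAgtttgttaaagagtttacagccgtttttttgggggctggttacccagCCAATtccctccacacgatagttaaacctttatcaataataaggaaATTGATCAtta
Hoxa10 start site 1: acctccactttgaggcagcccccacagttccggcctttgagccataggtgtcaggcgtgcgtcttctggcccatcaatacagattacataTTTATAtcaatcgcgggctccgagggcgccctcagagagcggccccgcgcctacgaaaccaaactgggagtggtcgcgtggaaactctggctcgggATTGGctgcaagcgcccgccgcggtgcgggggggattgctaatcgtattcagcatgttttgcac
Hoxa10 start site 2: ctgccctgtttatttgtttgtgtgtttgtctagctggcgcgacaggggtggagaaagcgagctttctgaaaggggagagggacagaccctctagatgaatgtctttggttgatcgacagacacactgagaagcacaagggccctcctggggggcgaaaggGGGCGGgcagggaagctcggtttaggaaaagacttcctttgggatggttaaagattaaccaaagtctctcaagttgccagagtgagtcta
Hoxd10: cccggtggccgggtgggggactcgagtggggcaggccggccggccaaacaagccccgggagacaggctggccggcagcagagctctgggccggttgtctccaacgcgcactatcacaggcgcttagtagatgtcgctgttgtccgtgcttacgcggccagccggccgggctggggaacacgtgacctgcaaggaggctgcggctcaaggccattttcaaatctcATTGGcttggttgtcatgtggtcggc
The Hoxb4 window lies at chr11:96318017-96318266 on the plus strand and held none of the 5 motifs. The Hoxb8 window, at chr11:96281655-96281904 on the plus strand, held all 5, with 2 matches each to TATAAA and TTTATG. The Hoxa10 windows lie at chr6:52234940-52235189 and chr6:52240855-52241104 on the minus strand; the former held TATAAA and CCAAT and the latter GGGCGG. The Hoxd10 window, at chr2:74691641-74691890 on the plus strand, held CCAAT. For scale, GGGCGG was found in 32.7% of all 32851 windows of this length in the table, TATAAA in 12.4%, CCAAT in 33.8%, TGATNNAT in 7.68% and TTTATG in 10.8%. The GC content was 58.0% for Hoxb4, 44.4% for Hoxb8, 59.2% and 51.6% for Hoxa10 and 65.6% for Hoxd10, beside a median of 52.4% over all windows. A match is a string of letters and was not examined as a binding site.

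Which Hox genes were seen at all in back skin differed by cluster and by number. Counted per gene by its best probe over the 24 channel readings of the 12 arrays, 20 of the 37 genes were well above background in every reading, 10 in some and 7 in none. In Hoxb, 8 of 10 genes (Hoxb2 to Hoxb9) were above background in every reading, and Hoxb1 and Hoxb13 in none, although the Hoxb1 probe was printed 10 times. In Hoxa, 6 of 11 genes were above background in every reading, and Hoxa13 reached it in 1 of 24. In Hoxc, Hoxc6, Hoxc9 and Hoxc10 were above background throughout, and Hoxc12 never. In Hoxd, Hoxd4, Hoxd8 and Hoxd9 were above background throughout and Hoxd10 in 22 of 24 readings, whereas Hoxd1, Hoxd3, Hoxd12 and Hoxd13 were never above it and Hoxd11 was in 1 reading. These genes are described as not well above background, which sets no level, as a probe's brightness also depends on its sequence.

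**Figure D1:**
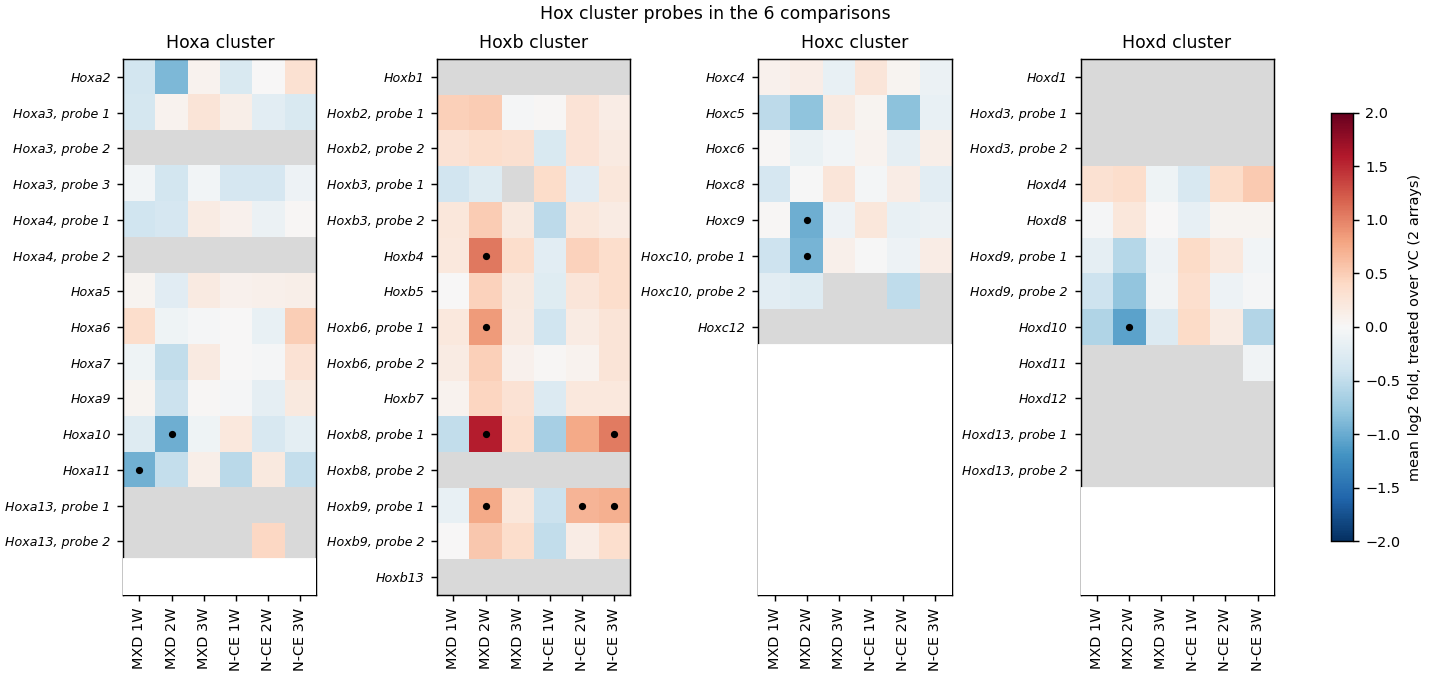
Mean log2 fold, treated over VC, of the Hox probes (rows, ordered by cluster and paralog number, several probes of a gene numbered in the order of their identifiers) in the 6 comparisons (columns), from blue (lower) to red (higher). Grey cells were not well above background in either group and black dots mark the 12 calls; red fills most of the Hoxb column of MXD 2W and blue the high-numbered rows of Hoxa, Hoxc and Hoxd.

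MXD 2W was the comparison with the most Hox calls. Most Hoxb probes had means above 0 and most probes of the other clusters had means below 0. Of 35 measured Hox probes 4 were called higher, which is 11.4% of them beside 5.79% of all 28664 measured probes, and 4 were called lower, 11.4% beside 8.36%, so that the share of lower calls was near that of the whole table. The 4 higher calls were all Hoxb and the 4 lower calls were all paralogs 9 and 10 of Hoxa, Hoxc and Hoxd. The median over all Hox probes, -0.13 ± 0.23 (SD of the medians of the 2 arrays), lay within the spread of the arrays, which gave 0.12 with the treated RNA in Cy5 and -0.21 with it in Cy3. The median over all measured probes was 0.05.

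Of the 12 measured Hoxb probes in MXD 2W, 11 had a mean above 0 and 10 were above 0 on both arrays. Among all measured probes, 37.8% were above 0 on both. The Hoxb median was 0.51 ± 0.11, with 0.49 and 0.64 on the 2 arrays. Hoxb8, whose loss in mice is known to cause excessive grooming and hair removal, had the highest log2 fold of all Hox probes. It was 1.68 with MXD in Cy5 and 1.46 with MXD in Cy3, a mean of 1.57 ± 0.16 or 2.97-fold. The dye-normalized signal of the probe was 525 in MXD and 163 in VC on the former array and 487 in MXD and 177 in VC on the latter. Its probe lies at chr11:96146456-96146515 in mm9, on the strand of the gene. A second Hoxb8 probe, at chr11:96143892-96143951, was not well above background in any of the 24 readings and is not measured. Hoxb4, known for its role in blood stem cells, had 0.89 and 1.22, a mean of 1.05 ± 0.23 or 2.08-fold, at chr11:96181521-96181580. Both genes rose on both arrays, which a call requires, and by more than their SD.

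Hoxb6, a trunk patterning gene, had log2 folds of 1.06 and 0.64 in MXD 2W at chr11:96162563-96162622, a mean of 0.85 ± 0.29 or 1.80-fold. Its other probe, at chr11:96160281-96160340, had 0.70 and 0.25, a mean of 0.47, and was not called. Hoxb9, which patterns the thoracic ribs, had 0.72 and 0.80 at chr11:96137748-96137807, a mean of 0.76 ± 0.06 or 1.70-fold. Its other probe, at chr11:96137065-96137124, had 0.43 and 0.64, a mean of 0.54, and was not called. For both genes the probes had the same direction and 1 of the pair passed the fold threshold with its P. The members not called were Hoxb2, Hoxb3, Hoxb5 and Hoxb7, with means of 0.36, 0.51, 0.47 and 0.43 on the bright probe of their own strand. This Hoxb2 probe had -0.07 and 0.79, so that its arrays differed in sign. The only Hoxb mean below 0 was that of a dim Hoxb3 probe, above background in 1 of the 4 readings, at -0.26.

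The other 3 clusters went mostly the other way in MXD 2W, and most clearly at their high-numbered end. Of 23 measured probes of Hoxa, Hoxc and Hoxd, 19 had a mean below 0 and 14 were below 0 on both arrays, where 31.2% of all measured probes were. For paralogs 9 to 13 the counts were 9 of 9 below 0 and 8 on both arrays, with a median of -0.78 ± 0.02. The medians of the 2 arrays were -0.75 and -0.72. For paralogs 1 to 8 the counts were 10 of 14 and 6 on both arrays, with a median of -0.18 ± 0.32 whose arrays differed in sign. Over the 3 clusters together, the arrays thus had the same sign for the median of the high-numbered genes and not for that of the low-numbered ones. The clusters differed in this. In Hoxa, 7 of 8 probes of paralogs 1 to 8 were below 0. Their median was -0.35, with -0.06 and -0.54 on the arrays, beside -0.47 for paralogs 9 to 13. The medians of paralogs 1 to 8 and 9 to 13 were -0.07 and -0.92 in Hoxc and 0.29 and -0.78 in Hoxd.

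Hoxa10, which patterns the reproductive tract and the hind limb, had log2 folds of -1.03 and -0.91 at chr6:52181656-52181715 in mm9, a mean of -0.97 ± 0.08 or 0.511-fold. Hoxc9, a thoracic patterning gene, had -1.23 and -0.72 at chr15:102814735-102814794, a mean of -0.98 ± 0.36 or 0.508-fold. Hoxc10, expressed in the lumbar trunk, had -0.92 on both arrays at chr15:102801857-102801916, or 0.527-fold. Its other probe, which crosses an intron and was above background in 2 of 4 readings, had 0.14 and -0.66. Hoxd10, another lumbar and hind limb gene, had -1.15 and -0.98 at chr2:74532280-74532339, a mean of -1.06 ± 0.12 or 0.478-fold, and was well above background in the MXD channel on 1 of the 2 arrays. All 4 genes fell on both arrays, which a call requires. With background corrected by normexp, which draws the folds of dim probes towards 0, the means were -0.28 for Hoxd10, -0.57 for Hoxc10, -0.72 for Hoxa10 and -0.91 for Hoxc9. They were 0.97 for Hoxb8, 0.77 for Hoxb6, 0.56 for Hoxb9 and 0.54 for Hoxb4 on the called probes. By these values Hoxd10, Hoxb9 and Hoxb4 no longer passed the fold thresholds. Hoxd9 was below 0 on both arrays by both of its probes, with means of -0.57 and -0.78, without meeting the P criterion on both arrays.

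Among the low-numbered genes of these clusters in MXD 2W, Hoxa2 had a mean of -0.90 and was below 0 on both arrays, without a call. Hoxc5 had -0.60 and -1.02 but was not well above background in the MXD channel on either array. Hoxd4 and Hoxd8 were above 0 on both arrays, with means of 0.35 and 0.22. Hoxd therefore held both directions, with its measured genes 4 and 8 above 0 and 9 and 10 below. Hoxc13 was called higher, with 0.91 and 1.29, a mean of 1.10 ± 0.27, while Hoxc9 and Hoxc10 of the same cluster were called lower.

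**Figure D2:**
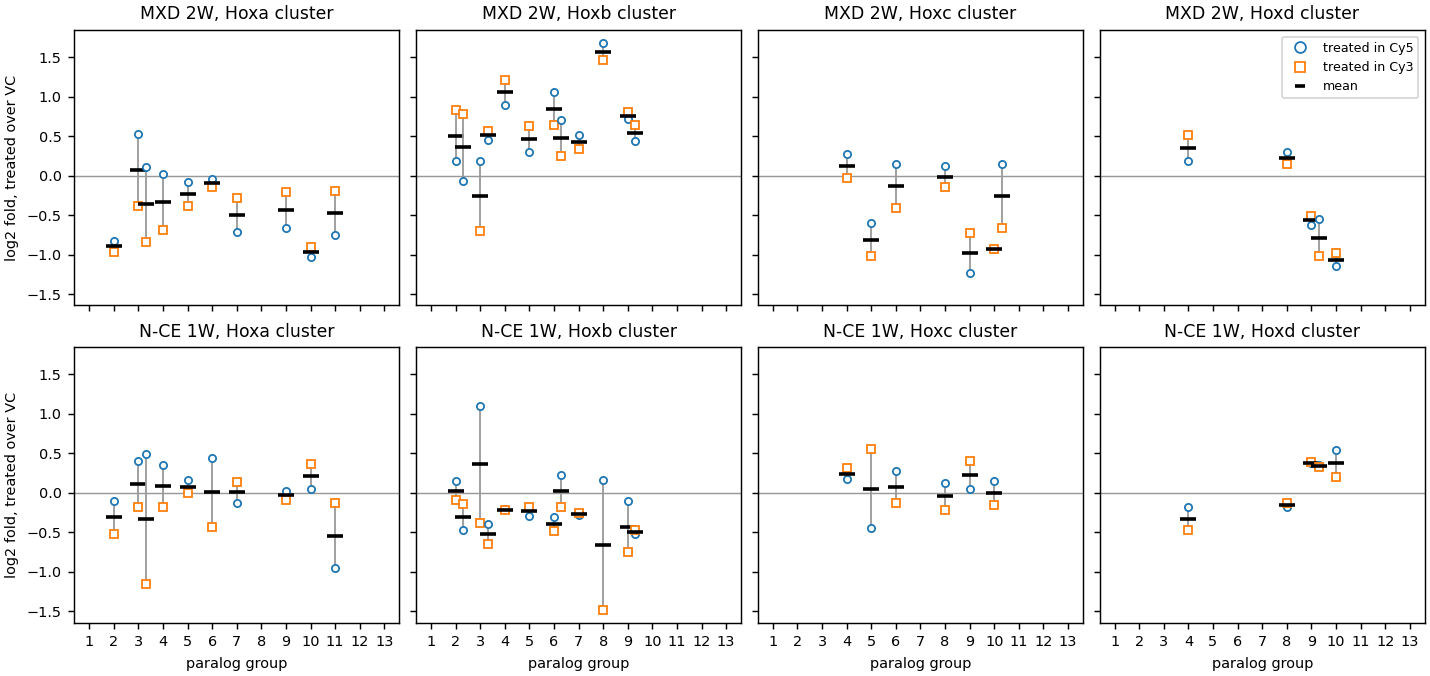
Log2 fold, treated over VC, against paralog number in the 4 clusters for MXD 2W (upper row) and N-CE 1W (lower row); circles and squares are the 2 arrays of the dye swap, joined by a line, bars are their mean, and further probes of a gene are drawn slightly to the right. In MXD 2W the means of the Hoxb probes lie above 0 with 1 exception. The means of all measured paralogs from 9 upward of Hoxa, Hoxc and Hoxd lie below 0. In N-CE 1W Hoxd9 and Hoxd10 lie above 0.

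Cell type markers moved in MXD 2W as well. Of the 12 growing follicle markers, which include Hoxc13, 12 were called higher, with a median log2 fold of 1.28 ± 0.11 and a summed signal of 872000 in MXD and 355000 in VC. Of the 5 melanocyte markers 5 were called higher, with a median of 1.27. Of the 10 fibroblast markers 4 were called lower and 10 were below 0, with a median of -0.68 ± 0.19 and a summed signal of 184000 in MXD and 320000 in VC. All 9 measured skeletal muscle markers were called lower, with a median of -1.46 ± 0.28 and a summed signal of 177000 against 489000. Each follicle and fibroblast marker was well above background in at least 1 group. Among the other lists, lower calls were made on 4 of 8 epidermis, 4 of 6 adipocyte, 2 of 5 endothelium, 3 of 5 smooth muscle, 2 of 6 leukocyte and 1 of 4 Schwann cell markers, with medians between -0.71 and -0.46. Some of these lists were split. Krt1, Krt10, Lor and Flg2 of epidermis were called lower, while Krt5, Trp63 and Dsp were above 0, at 0.09, 0.33 and 0.18. Acta2 and Tagln of smooth muscle were above 0, at 0.18 and 0.35, as were 1 leukocyte and 1 Schwann cell marker. In every comparison all 10 fibroblast markers and 5 to 8 of the 8 epidermis markers were measured. The part of these cell types in the Hox values was not tested.

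In MXD 1W, Hoxa11 was the only Hox probe called. That is 1 lower call among 35 measured probes, 2.86% beside 1.11% of all measured probes, and no higher call beside 0.995%. Hoxa11, which patterns the forelimb and the uterus, had log2 folds of -0.90 and -1.02 at chr6:52192107-52192166, a mean of -0.96 ± 0.08 or 0.513-fold. It was well above background in 19 of 24 readings, and with background correction by normexp its mean was -0.26. The highest mean among bright probes, 0.48 ± 0.17, belonged to a probe named Hoxb2 that lies on the opposite strand of the cluster, at chr11:96211860-96211919, and is derived from a cDNA clone and not from the Hoxb2 mRNA. It is not read as Hoxb2 here.

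The medians of the clusters in MXD 1W lay nearer to 0 than in MXD 2W. The Hoxb median was 0.12 ± 0.10, with 9 of 12 probes above 0, and 0.07 without the opposite-strand probe, with the arrays then differing in sign. Over Hoxa, Hoxc and Hoxd, 16 of 23 probes were below 0 and 12 were so on both arrays, beside 33.3% of all probes. Their median was -0.17 ± 0.03, beside -0.10 and -0.14 as the medians of the 2 arrays. Hoxd10 had -0.66 and -0.54, a mean of -0.60 ± 0.09, and Hoxc10 had -0.37 and -0.46, a mean of -0.42 ± 0.07. Both were below 0 on both arrays and neither was called. Growing follicle markers had a median of 0.55, with 2 of 12 called higher, and fibroblast markers 0.24. Of 10 skeletal muscle markers 9 were called lower, with a median of -0.78, and of 4 measured melanocyte markers 3 were called higher, with a median of 0.74.

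In MXD 3W no Hox probe was called, among 33 measured, beside 0.226% of all probes called higher and 0.253% called lower. The 11 measured Hoxb probes still had a mean above 0 in 10 cases and were above 0 on both arrays in 9, beside 27.3% of all probes, with a median of 0.22 ± 0.05. The highest was the second Hoxb9 probe with 0.44 and 0.27, a mean of 0.36 ± 0.12. Hoxb8 had 0.29 and 0.37, and Hoxb4 had 0.00 and 0.69, so that the arrays were close for the former and far apart for the latter. The 22 probes of the other clusters had a median of -0.0015 ± 0.03, and the lowest bright probe was Hoxd10 with -0.20 and -0.35, a mean of -0.28 ± 0.11. Growing follicle markers had a median of 0.13 with none of 12 called. Of 5 melanocyte markers 4 were called higher, with a median of 0.73, and of 10 skeletal muscle markers 3 were called lower, with a median of -0.46. Their part in the Hoxb values was not tested.

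In N-CE 1W the Hoxb cluster had the lowest median of the 4 clusters. No Hox probe was called among 34 measured, beside 0.434% of all probes called higher and 2.21% called lower. Of 12 Hoxb probes, 9 had a mean below 0 and 8 were below 0 on both arrays, beside 28.2% of all probes, with a median of -0.29 ± 0.05. Hoxb3 had -0.40 and -0.65 on its bright probe, the second Hoxb9 probe -0.52 and -0.47, Hoxb6 -0.31 and -0.49 and Hoxb7 -0.28 and -0.25. These probes were below 0 on both arrays without a call. The other Hoxb6 probe, well above background in every reading, had 0.23 and -0.18, so that the probes of this gene differed in sign. The lowest mean, -0.66 ± 1.16 for Hoxb8, came from 0.16 and -1.49 and has no settled direction.

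The 3 measured probes of Hoxd9 and Hoxd10 were above 0 on both arrays in N-CE 1W. The Hoxd9 probe at chr2:74537333-74537392, the highest bright Hox probe, had 0.38 and 0.39, a mean of 0.38, and the other Hoxd9 probe had 0.35 and 0.32. Hoxd10 had 0.54 and 0.21, a mean of 0.38 ± 0.24, and Hoxd4 had -0.18 and -0.48. The Hoxa and Hoxc medians were 0.01 ± 0.13 and 0.06 ± 0.03. Growing follicle markers fell in 12 of 12 cases, with a median of -2.71 ± 0.24 and a summed signal of 42100 in N-CE and 293000 in VC. Among them, Hoxc13 was called lower with -1.62 and -1.41. It was well above background in the N-CE channel on 1 of the 2 arrays, and with normexp its mean was -0.42. Of 4 measured melanocyte markers 4 were called lower, with a median of -1.80. Fibroblast markers had a median of 0.13 and skeletal muscle markers -0.10. The part of the follicle and melanocyte markers in the Hoxb values was not tested.

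N-CE 2W held 1 Hox call. Hoxb9 was called higher, 1 of 36 measured probes or 2.78% beside 0.0987% of all probes, and none was called lower, beside 0.074%. Its log2 folds were 0.61 and 0.75, a mean of 0.68 ± 0.10 or 1.60-fold, while the other Hoxb9 probe had 0.16 and 0.15. The 2 probes thus had the same direction and differed by 0.52. The call was lost with normexp and loess, where the log2 fold was 0.53, and with 1 probe per gene, which takes the brighter, uncalled probe. Hoxb8 had the highest mean, 0.75 ± 0.48 from 0.41 and 1.09, and was not called. Of 12 Hoxb probes 11 had a mean above 0 and 8 were above 0 on both arrays, beside 20.1% of all probes, with a median of 0.24 ± 0.06. Over all bright probes, the 2 arrays of this dye swap had a correlation of -0.17 across probes after both were turned to N-CE over VC.

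Outside Hoxb, no Hox probe was called in N-CE 2W. Hoxa10 was the lowest bright probe, with -0.48 and -0.17, a mean of -0.33 ± 0.21. Hoxc5 had -0.99 and -0.65 and was not well above background in the N-CE channel, so that only a bound could be set, at least 1.13-fold lower. Growing follicle markers had a median of 0.33 ± 0.11 with 12 of 12 above 0 and none called, and fibroblast markers had -0.15. Melanocyte markers were above 0 in 5 of 5 cases, with a median of 0.53 and none called, and skeletal muscle markers were below 0 in 10 of 10, with a median of -0.48 and 1 called lower.

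N-CE 3W held 2 Hox calls, both in Hoxb and both higher. They are 5.71% of 35 measured probes, beside 0.219% of all probes, and none was called lower, beside 0.201%. Hoxb8 had log2 folds of 1.01 and 1.06, a mean of 1.04 ± 0.04 or 2.05-fold. Hoxb9 had 0.65 and 0.77, a mean of 0.71 ± 0.08 or 1.64-fold, and its other probe had 0.43 and 0.24. All 12 Hoxb probes had a mean above 0 and 11 were above 0 on both arrays, beside 28.2% of all probes, with a median of 0.26 ± 0.06. The other 3 clusters had a median of -0.03 over 23 probes. Outside Hoxb, Hoxd4 had 0.54 and 0.51, Hoxd10 had -0.49 and -0.68 with N-CE above background on 1 array, and Hoxa3, the lowest bright probe, had -0.02 and -0.59. Growing follicle markers had a median of 0.10 with none called. Melanocyte markers were above 0 in 5 of 5 cases, with a median of 0.50 and 1 called higher, and skeletal muscle markers were below 0 in 10 of 10, with a median of -0.39 and 1 called lower. Their part in the Hoxb values was not tested.

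**Figure D3:**
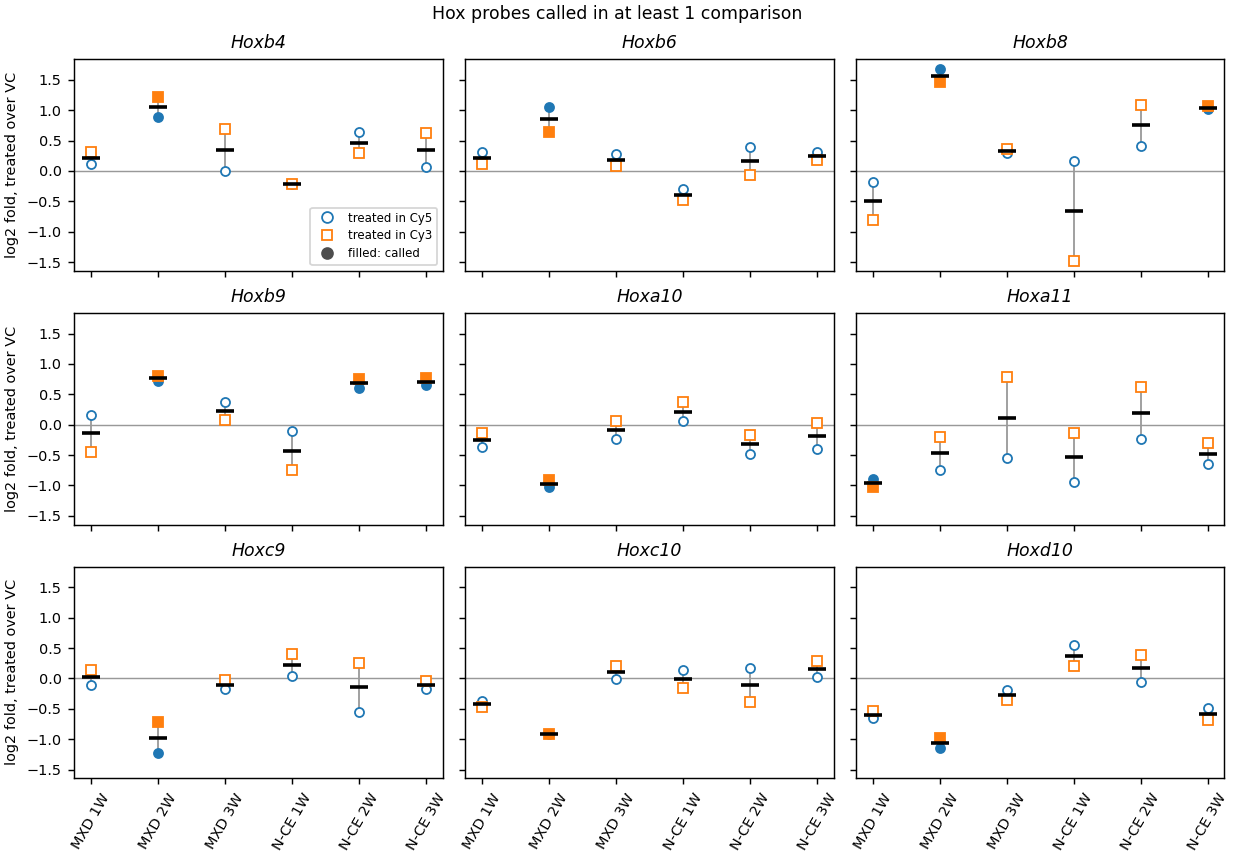
Log2 fold, treated over VC, of the 9 called Hox probes in the 6 comparisons; circles are arrays with the treated RNA in Cy5, squares those with it in Cy3, bars their mean, and filled symbols mark calls. The 4 Hoxb genes are above 0 on both arrays in MXD 2W and N-CE 3W, and Hoxa10, Hoxc9, Hoxc10 and Hoxd10 are lowest in MXD 2W.

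The called Hoxb genes can be followed gene by gene over the weeks. Hoxb8 had means of -0.50 ± 0.45, 1.57 ± 0.16 and 0.33 ± 0.05 in MXD 1W, 2W and 3W. Its means in N-CE were -0.66 ± 1.16, 0.75 ± 0.48 and 1.04 ± 0.04. In MXD both arrays of 2W were above those of the other weeks, and in N-CE the arrays of 2W and 3W overlapped. Hoxb9 had -0.14 ± 0.43, 0.76 ± 0.06 and 0.22 ± 0.21 in MXD and -0.43 ± 0.46, 0.68 ± 0.10 and 0.71 ± 0.08 in N-CE. Hoxb4 had 0.22, 1.05 and 0.35 in MXD and -0.21, 0.47 and 0.35 in N-CE. Hoxb6 had 0.21, 0.85 and 0.18 in MXD and -0.40, 0.16 and 0.25 in N-CE. Each of the 4 genes had its highest MXD log2 fold at 2W, and Hoxb9 alone of them was called at 2W in both treatments. These 2 calls share 1 VC pool and are not independent. The normalized log2 level of this Hoxb9 probe in VC was 8.23 and 7.93 on the MXD and N-CE arrays of 2W. It was 8.72 and 8.99 at 1W and 8.66 and 8.55 at 3W. Treated levels at 1W, 2W and 3W were 8.62, 8.80 and 8.86 in MXD and 8.60, 8.46 and 9.19 in N-CE. The part of the VC pool in these calls was not tested.

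Each gene called lower was called in 1 comparison. Hoxa10 had -0.26, -0.97 and -0.09 in MXD and 0.21, -0.33 and -0.19 in N-CE. Hoxc9 had 0.02, -0.98 and -0.10 in MXD and 0.22, -0.15 and -0.11 in N-CE. Hoxc10 had -0.42, -0.92 and 0.10 in MXD and -0.01, -0.11 and 0.15 in N-CE. Hoxd10 had -0.60, -1.06 and -0.28 in MXD and 0.38, 0.16 and -0.59 in N-CE, so that it was below 0 in every MXD comparison. Hoxa11 had -0.96, -0.47 and 0.11 in MXD and -0.54, 0.19 and -0.48 in N-CE, and its 2 arrays differed in sign at MXD 3W and N-CE 2W.

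**Figure D4:**
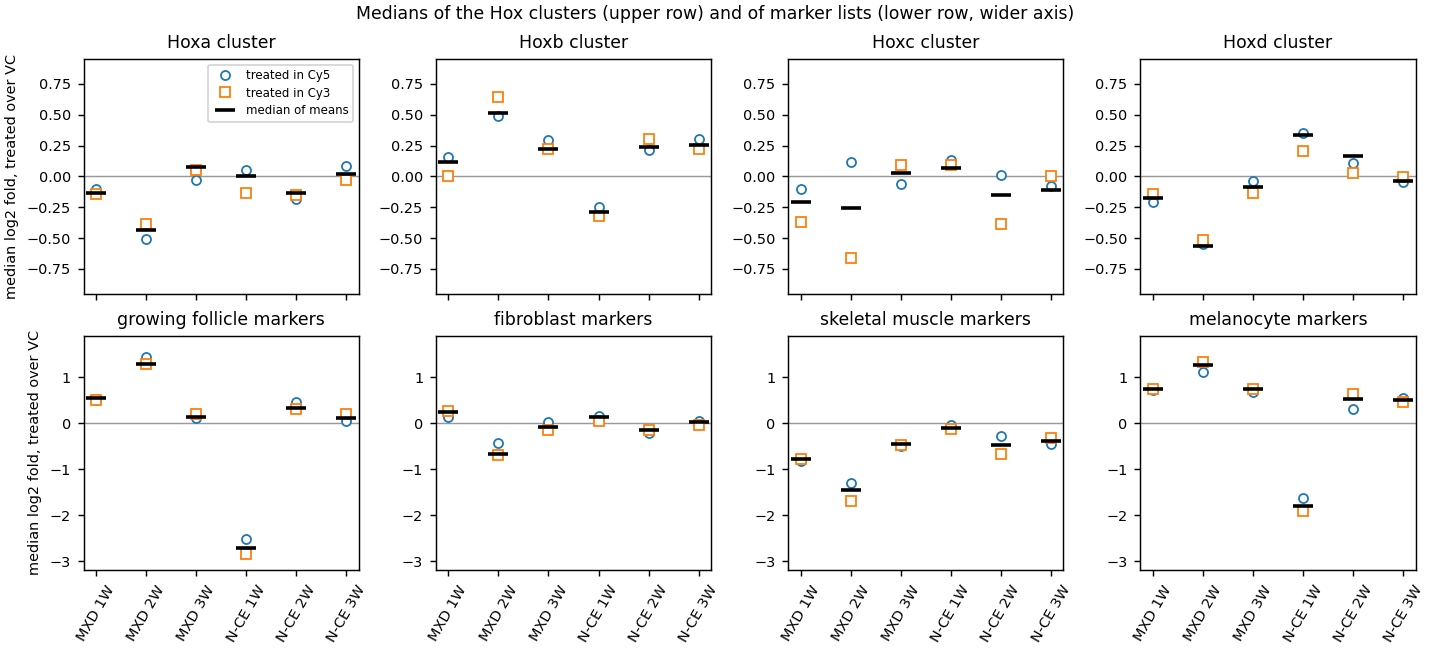
Median log2 fold, treated over VC, of the 4 Hox clusters (upper row) and of 4 marker lists (lower row, on a wider axis) in the 6 comparisons; circles and squares are the medians on each array of the dye swap and bars the median of the means. The Hoxb median is highest in MXD 2W, at 0.51, and below 0 only in N-CE 1W, at -0.29, where the growing follicle median is -2.71.

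Genes known to act with or on Hox genes were described from lists. Of 9 TALE cofactors, all measured, 1 was called in 1 comparison: Meis2, a Hox cofactor, had -0.98 and -0.95 in MXD 2W, a mean of -0.96 ± 0.02. In MXD 2W 5.79% of all probes were called higher and 8.36% lower. Of 16 Polycomb genes, 1 was called higher and 1 lower in MXD 2W, and none elsewhere. Beside these shares, so few calls are not read as a result about either list. Cbx8, a chromodomain subunit of Polycomb repressive complex 1, had 0.95 and 0.85, and Cbx7, which can take its place in that complex, had -0.72 and -1.04. The 8 genes of Trithorax and the H3K27 demethylases had no call, with a median of 0.27 ± 0.18 in MXD 2W. Of the 8 caudal genes and homeobox neighbours of the clusters, 2 were measured in each comparison and none was called.

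The retinoic acid list had 5 calls among 17 measured genes in MXD 2W and 2 among 16 in MXD 1W, and none elsewhere. In MXD 2W 2 of them were higher and 3 lower, beside 5.79% and 8.36% of all probes, and in MXD 1W 1 was higher and 1 lower, beside 0.995% and 1.11%. Cyp26a1, an enzyme that degrades retinoic acid, was higher with 1.07 and 1.33. Lower were Aldh1a1, an enzyme that makes retinoic acid, with -1.18 and -1.42, the degrading enzyme Cyp26b1 with -0.66 and -1.10, and the receptor Rxrg with -1.46 and -1.36. The calls on genes that make and that degrade retinoic acid thus fell on both sides. In MXD 1W Aldh1a3 had 0.57 and 0.85 and Rxrg had -0.79 and -0.63.

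Homeobox genes outside the clusters had most of their calls in MXD 2W and N-CE 1W. Of 31 measured genes of 35 in MXD 2W, 11 were called higher, beside 5.79% of all probes, and 11 lower, beside 8.36%. Among the higher were Dlx3, Msx2 and Lhx2, which act in the growing hair follicle, with means of 1.36, 1.20 and 0.83. Among the lower was Prrx1, a gene of dermal mesenchyme, with -0.96. In N-CE 1W, 8 of 30 were called lower, beside 2.21% of all probes, Dlx4 and Dlx2 among them, and none higher, while no Hox cluster probe was called. In N-CE 3W, 1 of 31 was called, and in the other comparisons none.

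Across the 3 weeks, limma with the weeks in place of replicates found no Hox probe with a Benjamini-Hochberg adjusted p under 0.05 for MXD, N-CE or their difference. No probe of the whole table passed in these fits. For MXD, 5 of 33 Hox probes had an unadjusted p under 0.05, beside 10.3% of 25228 probes. They were higher for Hoxb2, Hoxb3 and Hoxb4 and lower for Hoxd9 and Hoxd10. Hoxb2 had 0.28, 0.36 and 0.32 in the 3 weeks, a mean of 0.32 ± 0.10 (SE) with an adjusted p of 0.464 from limma. Its 2 arrays differed in sign at 2W, with -0.07 and 0.79. Hoxd10 had a mean of -0.65 ± 0.17 (SE) with an adjusted p of 0.464 from limma. For N-CE, 1 of 34 Hox probes had an unadjusted p under 0.05, beside 1.99% of 26023 probes. It was a dim Hoxa3 probe, well above background in 11 of 24 readings, with a mean of -0.26 ± 0.09 (SE). The brighter Hoxa3 probe had 0.11, -0.22 and -0.30 in the 3 weeks. Without week 1 the count of Hox probes with such a p for N-CE was 13 of 34, with 11 higher and 2 lower, beside 14.3% of all probes. For MXD, leaving out 1 week gave 3 to 9 such probes, the 9 without week 3 beside 11.7% of all probes. For MXD minus N-CE, 2 of 33, both of Hoxd9, had one, beside 7.21% of 24647 probes. The Hoxd9 differences were -0.56, -0.78 and -0.05 on 1 probe and -0.75, -0.68 and -0.05 on the other, below 0 in all 3 weeks. Hoxd10 differed by -0.97, -1.23 and 0.31 in the 3 weeks, a mean of -0.63 ± 0.30 (SE) with an adjusted p of 0.678 from limma. Without week 3, the week of opposite sign, its difference was -1.10 ± 0.17 (SE) with an adjusted p of 0.041 from limma, and 1175 of 24647 probes passed.

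The precision of single values can be read from probes that repeat a gene and from VC itself. Among pairs of measured probes of 1 gene, without the opposite-strand probe, 22 of 32 had means of the same sign, and of those bright in both groups 16 of 20 did, with a median difference of 0.15. Hoxb3 and Hoxa3 held most of the pairs that disagreed. The same VC RNA was also read on MXD arrays and on N-CE arrays each week. Their normalized log2 levels differed by a median of -0.02, 0.07 and 0.01 over the Hox probes at 1W, 2W and 3W. The largest gap was -1.13 for Hoxa7 at 2W. The lower fold threshold was passed by 3 probes at 2W and by 4 at 3W. Among the called genes, the widest such gap was 0.38, for Hoxb6 at 2W. Folds within an array do not carry this difference between arrays, but comparisons of levels across arrays would.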

How the data were processed

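RNA of pooled whole back skin was measured on 12 Agilent 2-colour arrays. The authors deposited, for each spot, a background-subtracted and LOWESS dye-normalized log10 ratio (red, Cy5, over green, Cy3), a p-value from the error model of the software, and the signal intensity of each channel before and after processing. Per the file headers Agilent Feature Extraction 12.0.3.1 was used, while the submitters' processing notes name 11.0.1.1. Probe positions in the files are on mm9.

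Calculations used Python 3.11.15, numpy 2.4.6, pandas 2.3.3, R 4.3.3 and limma 3.58.1, and figures matplotlib 3.10.9. Control spots and spots marked as outliers (143 to 355 per array) were left out, ratios were turned to treated over VC on the log2 scale, and spots of a probe were averaged. The fold is the geometric mean of a dye swap. Of the 50 Hox probes, 45 carry an accession of the RefSeq table, all 45 with the same symbol. A bound for a gene not well above background in 1 group used normexp (offset 50), loess and Aquantile levels, with the dim group at the higher of its own level and the lowest level well above background. For the fit across weeks, limma took the log2 folds of the 3 weeks as replicates, over all probes measured in each, with Benjamini-Hochberg adjustment over all of them. The calling rule and the fit were tested on simulated data. Number of arrays and pools limits the precision, and depth has no counterpart here.

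Named with values were all Hox genes called in at least 1 comparison, the highest and lowest bright probe of each comparison and genes whose probes disagreed. The members, the lists of regulators, homeobox genes and cell type markers, and the tests were chosen with earlier results of these data known. Genes of a list were taken by their brightest probe. The alternatives were another background correction, filter, probe choice, threshold and mean, outlier spots kept, the deposited matrix of log10 ratios (a value per spot within 5e-09 of the log10 ratio of processed intensities), and each array or week left out. Some genes counted in the totals are not reported here by name and are not drawn in the figures of single genes.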

Additional observations from a re-analysis of the deposited data

Results flagged for a closer look

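The MXD and N-CE comparisons of a week share a VC pool. The values looked at for this were the medians of the 4 clusters and the 9 called genes, week by week. Of these, 8 had both MXD arrays on 1 side of VC and both N-CE arrays on the other. The share of all measured probes that parted in this way was not counted. The 8 are therefore not read as particular to Hox genes. None of these weekly differences was tested, since each rests on 1 pool per group. At 1W, the Hoxb cluster median was 0.12 in MXD and -0.29 in N-CE, a difference of 0.41. Without the opposite-strand probe the MXD arrays differed in sign. The Hoxc median was -0.20 in MXD and 0.06 in N-CE, a difference of -0.27. These Hoxc medians covered 7 probes in MXD and 6 in N-CE. With normexp and loess they were -0.01 and 0.03. The Hoxd median was -0.17 in MXD and 0.34 in N-CE, a difference of -0.51. Among the called genes at 1W, Hoxa10 differed by -0.47, Hoxb4 by 0.43, Hoxb6 by 0.61 and Hoxd10 by -0.97 as MXD minus N-CE. The other Hoxb6 probe differed by 0.14, and its arrays differed in sign in both treatments. With normexp and loess, Hoxd10 had -0.20 in MXD and 0.18 in N-CE. At 2W the Hoxd median was -0.57 in MXD and 0.16 in N-CE, a difference of -0.73. The Hoxd cluster did not part as a whole. At 2W Hoxd4 had 0.35 in MXD and 0.37 in N-CE, and Hoxd8 had 0.22 and 0.06. At 1W Hoxd4 parted the other way from the Hoxd median, with 0.31 in MXD and -0.33 in N-CE. Growing follicle markers had medians of 0.55 in MXD and -2.71 in N-CE at 1W, and their part in these differences was not tested.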

How the results depend on the processing

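Over the alternatives, 207 summary values were recomputed and 175 stayed within 1.5 times the main count or within the spread of the arrays. None of the 72 recomputations of the 12 called values changed sign. For several of them this was fixed in advance. A call already needed 1 direction on both arrays, so leaving out 1 array could not reverse it. The deposited matrix holds nearly the same ratios and could not either. Without the P criterion, lower calls numbered 6 in MXD 1W, 12 in MXD 2W, 5 in N-CE 1W, 2 in N-CE 2W and 2 in N-CE 3W, and higher calls 2 in N-CE 2W. With normexp and loess, no Hox probe was called lower in MXD 1W (0) or higher in N-CE 2W (0). In MXD 2W 2 were called higher, Hoxb6 and Hoxb8. The medians were 0.0405 in MXD 3W and 0.036 in N-CE 2W. Requiring both groups above background gave medians of 0.127 in MXD 2W, opposite in sign to the median over all measured probes, and 0.108 in N-CE 2W. With no filter on dim probes, the medians of MXD 3W and N-CE 2W were 0.0. With 1 probe per gene, higher calls numbered 0 in N-CE 2W and 1 in N-CE 3W. With 1 array left out, lower calls ranged from 1 to 4 in MXD 1W, 7 to 8 in MXD 2W, 1 to 3 in N-CE 1W and 0 to 1 in N-CE 2W. Higher calls ranged from 5 to 8 in MXD 2W, 0 to 1 in MXD 3W and 2 to 3 in N-CE 2W. The medians then ranged from -0.21 to 0.118 in MXD 2W, -0.0108 to 0.0603 in MXD 3W, 0.0425 to 0.0747 in N-CE 2W and 0.0596 to 0.144 in N-CE 3W. Leaving out 1 week, limma's count of Hox probes differing between MXD and N-CE ranged from 0 to 1, the 1 being Hoxd10 without week 3. The causes of the other shifts were not tested. Precision is limited by 1 pool per group, and for the dim probes by their signal over background.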

Other observations

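Hoxc13, at the far end of the Hoxc cluster and among the growing follicle markers, had mean log2 folds of 0.66, 1.10 and 0.14 in MXD 1W, 2W and 3W and of -1.51, 0.18 and 0.18 in N-CE. It was called higher in MXD 2W, where Hoxc9 and the brighter Hoxc10 probe were called lower with -0.98 and -0.92, and called lower in N-CE 1W, where these had 0.22 and -0.0057. In N-CE 1W, Hoxc13 was well above background in the N-CE channel on 1 array only, and with normexp its mean was -0.42.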
